A study of Mus musculus with 10 samples.

Results

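The histone genes were followed in RNA-seq of LSK cells, the Lin- Sca-1+ c-Kit+ fraction of mouse bone marrow that holds the hematopoietic stem and early progenitor cells. Members were the rows of the count table whose symbol belongs to a histone gene series (the older Hist1h to Hist4h, H2af and H3f3 names and the newer H1f, H2ac, H2bc, H3c, H4c, H2ax and H2az names), 68 of 25078 genes. Of these, 57 were grouped as replication-dependent and 11 as variant. The 5 CM mice carried Cbfb56M/+ and Mx1-Cre, so that poly(I:C) switched on the fusion gene Cbfb-MYH11. The 5 CM/miR-126Δ/Δ mice had these alleles plus miR-126 flox/flox, which Mx1-Cre deletes as well. All mice were backcrossed to C57BL/6, were 6 to 8 weeks old at induction and were taken in the preleukemic stage, 6 weeks after poly(I:C), with 1 library per mouse. Both sexes were used. Mx1-Cre responds to interferon and is not limited to blood cells, and no mouse without Cbfb-MYH11 was analysed here, so every difference below is between fusion-carrying mice with and without miR-126.

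Histones package DNA. An octamer of the core histones H2A, H2B, H3 and H4 holds each nucleosome, and linker histone H1 binds the DNA between nucleosomes. Most histone protein is made in S phase from clustered genes without introns, whose mRNAs end in a stem-loop rather than a poly(A) tail. The stem-loop binding protein Slbp and a U7 small nuclear RNP that includes Lsm10 and Lsm11 form this end, and Npat brings cyclin E and CDK2 activity to the clusters. Variant genes lie alone, mostly carry introns and poly(A) tails, and supply histones outside S phase. H3f3a and H3f3b both encode H3.3, H2az1 and H2az2 encode the promoter-enriched H2A.Z forms, H2ax encodes the H2A that is phosphorylated at DNA breaks, and H1f0 and H1f10 encode linker histones of non-dividing and differentiating cells. The libraries were made by depleting ribosomal RNA, not by selecting poly(A), so transcripts of both kinds were counted.

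The stem-loops are shown because they are what sets the replication-dependent transcripts apart from other mRNAs. The pattern searched was a stem of 6 bases that opens with GG, a loop of 4 bases that opens with TTT, and the reverse complement of the stem, on the transcript strand within 100 bases after the stop codon. It was found in 38 of the 57 replication-dependent genes and in 1 variant gene. Many transcript models end too early to show it: among models with at least 62 bases after the stop codon, 30 of 35 replication-dependent genes and 1 of 8 variant genes had it, against 40 of 19071 coding genes in all (0.21%). The first base lay 21 to 46 bases after the stop codon. In the following lines the paired stem is in capitals and the loop in lower case.
H2A, H2B, H3 and H1 form (23 genes, among them H1f1, H1f2, H1f3 and H1f4): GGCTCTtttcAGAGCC
H4 form (6 genes, among them H4c3, H4c4 and H4c8): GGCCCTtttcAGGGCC
H4c2 and H4c11 form (2 genes): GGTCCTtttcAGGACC
H2ax form (1 gene): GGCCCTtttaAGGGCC
H4c9, H4c14 and the variant H2ax shared the stem of the H4 form with other loops. H2ac20, H3c3, H3c6, H3c7 and H1f6 shared the stem of the first form with other loops. Of the variants, H2ax was the 1 gene with the letters, and H3f3a, H3f3b, H2az1, H2az2 and H1f10 had no match in this window.

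The 50 members of the large cluster lay on chromosome 13 between 21715711 and 23934913 (mm10), and 6 members lay on chromosome 3 between 96219885 and 96270192. The remaining replication-dependent member, Hist1h2al, lay alone on chromosome 13 at 51200084 to 51203066 and was classed by its name. In 11 places neighbouring members faced away from a shared space of 163 to 607 bases, and 10 of these were an H2A gene beside an H2B gene. Levels within such a pair were not alike. The higher gene was above the lower by 1.04-fold (H2ac6 and H2bc4) to 21.6-fold (H2ac20 and H2bc21), where the total exon length of H2bc21 is 2667 bases, mostly outside its coding sequence.

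Library totals ranged from 23649233 to 33202086 counts, of which 14.8% to 22.6% fell on the ribosomal precursor Rn45s. Counts of the targeted gene, Mir126a, were 4, 5, 0, 2 and 3 for CM mice 1 to 5 and 0 throughout CM/miR-126Δ/Δ, which is too few to check single labels. The sorted fraction was checked by its defining markers: Kit ranged from 702 to 1001 CPM and Ly6a, which encodes Sca-1, from 43.6 to 70.3 CPM (CPM, the count relative to the TMM-scaled library total). Of the 8 LSK markers, 3 had an unadjusted p under 0.05, all higher in CM/miR-126Δ/Δ (Hlf, Mecom and Meis1), where 3.29% of all genes were higher at this p. Summed B cell markers were at 24.3 to 38.8 CPM T cell markers at 5.51 to 12.1 CPM and endothelial markers at 14.6 to 23.0 CPM. Erythroid markers varied most, from 9.88 to 115.8 CPM in CM (mean 46.996) and from 28.4 to 86.2 CPM in CM/miR-126Δ/Δ (mean 62.1), with the globin genes Hba-a1, Hba-a2 and Hbb-bt at 0 in every library. Of that list Car1 had an unadjusted p under 0.05 with the mouse number as a block (0.031, higher in CM/miR-126Δ/Δ) and none did without it. In bulk samples, fewer cells of a type and less RNA per cell cannot be told apart.

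Of the 68 members, 67 had at least 1 count and 60 reached a mean of 1 RPKM (counts per kilobase of total exon length, scaled like CPM) in at least 1 genotype. These were 53 replication-dependent and 7 variant genes. Histone genes took 0.586% to 0.795% of all counts in a library. Median levels over the 10 mice were 124 RPKM for the replication-dependent and 39.3 RPKM for the variant genes that reached this level. These 60 genes had from 253 (Hist1h4n) to 164362 counts (H1f1) over the 10 libraries.

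**Figure D1:**
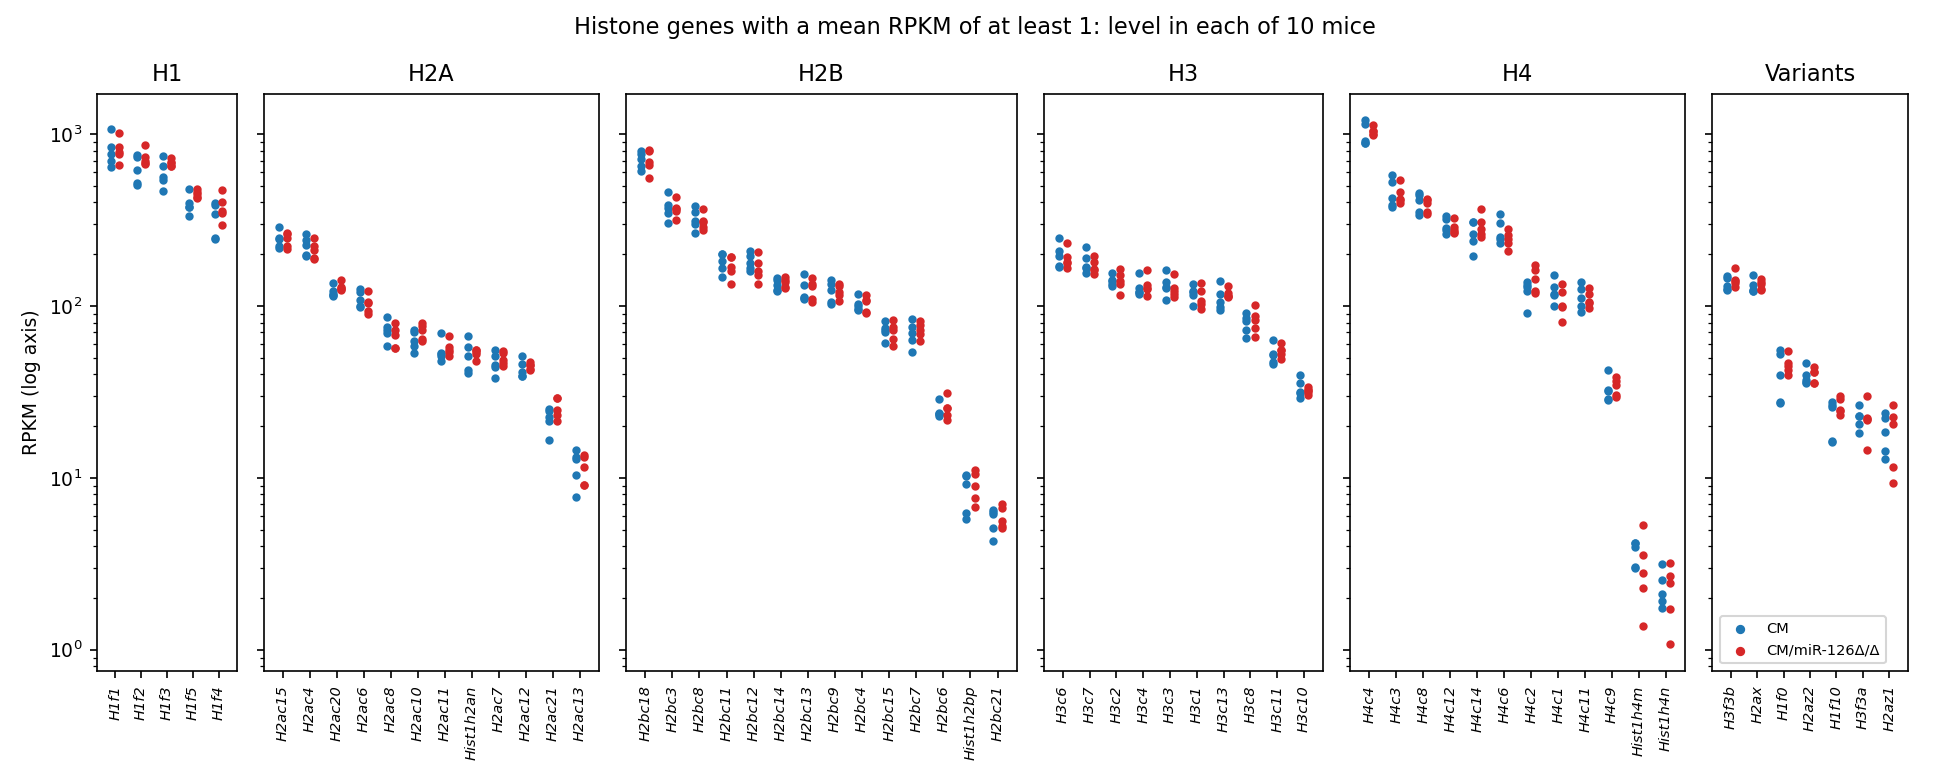
RPKM on a log axis of each histone gene with a mean of at least 1 RPKM, in 6 panels (replication-dependent H1, H2A, H2B, H3 and H4, and variants), with 1 point per mouse (blue, CM; red, CM/miR-126Δ/Δ; n = 5 each). Mean levels run from 349 to 809 RPKM in the H1 panel and from 2.26 to 1022 RPKM in the H4 panel, and the points of both genotypes overlap for every gene.

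H4c4, a gene for the single H4 protein sequence (chromosome 13, 23581568 to 23581969), had the highest level. It was at 883, 889.9, 914, 1209 and 1138 RPKM in CM mice 1 to 5 and at 1036, 983, 1000.2, 1127 and 1042 RPKM in CM/miR-126Δ/Δ mice 1 to 5. CM mice 4 and 5 were the highest and CM mice 1 to 3 the lowest, so the genotypes overlapped fully (log2 fold change 0.04, SE 0.0954, Benjamini-Hochberg adjusted p = 0.932 in the edgeR quasi-likelihood fit). The next in order were H1f1, with a mean of 801 ± 166 RPKM in CM and 816 ± 130 RPKM in CM/miR-126Δ/Δ (SD, n = 5), and H2bc18, with 705 ± 78.7 and 703 ± 106 RPKM. Ranges over mice overlapped between these neighbours. Within a mouse H4c4 was above H1f1, and H1f1 above H2bc18, in 10 of 10 mice, by as little as 663 against 659 RPKM in CM/miR-126Δ/Δ mouse 5. H1f2, lower by the mean over 10 mice, did not keep its place. It was above H1f1 in CM/miR-126Δ/Δ mice 3 (861 against 769 RPKM) and 5 (738 against 663 RPKM). It was above H2bc18 in CM mouse 3 and in CM/miR-126Δ/Δ mice 2, 3 and 5. H2bc18 lies in the chromosome 3 cluster (96269700 to 96270192) and was the highest of the H2B genes, followed by H2bc3 at 373 ± 56.9 RPKM in CM and 367 ± 40.4 in CM/miR-126Δ/Δ.

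H3 and H2A genes stood lower. The leading H3 genes, H3c6 and H3c7, were at 198 ± 33.2 and 180 ± 25.1 RPKM in CM and at 189 ± 25.0 and 170 ± 16.2 RPKM in CM/miR-126Δ/Δ. H2ac15 and H2ac4, the leading H2A genes, were at 244 ± 26.9 and 224 ± 29.1 RPKM in CM and at 243 ± 23.5 and 211 ± 24.9 RPKM in CM/miR-126Δ/Δ. H4c3 was the second H4 gene, at 458 ± 89.6 RPKM in CM and 447 ± 58.5 in CM/miR-126Δ/Δ. None of these genes differed between genotypes beyond the spread between mice (absolute log2 fold changes of at most 0.08, each adjusted p 0.837 or higher).

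Among the variants, H3f3b and H2ax were the most abundant. H3f3b was at 135 ± 11.9 RPKM in CM and 142 ± 13.9 RPKM in CM/miR-126Δ/Δ, while H3f3a, which encodes the same H3.3 protein, was at 22.2 ± 3.07 and 22.1 ± 5.49 RPKM. H2ax was at 123, 122, 123, 151 and 132 RPKM in CM and at 138, 124, 134, 143 and 126 RPKM in CM/miR-126Δ/Δ, the narrowest spread of the variants (highest over lowest mouse 1.24-fold). H2az1 had the widest. It was at 22.4, 23.8, 18.5, 12.9 and 14.3 RPKM in CM and at 26.4, 20.4, 11.5, 22.6 and 9.32 RPKM in CM/miR-126Δ/Δ, a 2.84-fold range over 10 mice in which both genotypes held high and low mice. H2az2, the other H2A.Z gene, kept to 35.5 to 46.7 RPKM. The linker variants H1f0 and H1f10 were both lowest in CM mice 1 and 3: H1f0 at 27.2 and 27.5 RPKM where the other 8 mice had 39.6 to 55.3, and H1f10 at 16.3 and 16.1 RPKM where the others had 23.1 to 29.9. Their log2 fold changes of 0.18 (SE 0.179) and 0.22 (SE 0.154) were within the spread between mice, with adjusted p = 0.802 and 0.765 from the same test.

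Genes known from the germ line were close to 0. H1f6, the testis linker histone once called Hist1h1t, had 6 to 20 counts per library and a mean of 0.688 RPKM in CM and 0.760 in CM/miR-126Δ/Δ. H2ac1 had 4 to 11 counts and H2bc1, its neighbour in the cluster, 0 to 3. The oocyte gene H1f8 had 1 count in 1 of the 10 libraries, and the testis gene H1f7 had 0 counts in every library. For a gene with 0 counts in a library, up to 3 counts would have been allowed by counting error alone. H2afy3, H3f3c and Hist1h2al also stayed under 1 RPKM, with 294, 26 and 344 counts over the 10 libraries, and H2afy3 overlaps the non-coding gene Pvt1 on the other strand.

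Summed levels were compared next, as CPM relative to the TMM-scaled library total. The 57 replication-dependent genes together were at 5284, 5363, 5344, 7076 and 6289 CPM in CM mice 1 to 5 and at 6292, 5868, 5936, 6425 and 5853 CPM in CM/miR-126Δ/Δ mice 1 to 5. CM mouse 4 was the highest of the 10 and CM mice 1 to 3 the lowest, and the CM/miR-126Δ/Δ mice fell between them. The mean log2 difference was 0.06, against between-mouse SDs of 0.19 in CM and 0.06 in CM/miR-126Δ/Δ. Leaving out CM mouse 4 moved it to 0.13. As a plain percent of library counts the order of mice was not the same. There CM/miR-126Δ/Δ mouse 3 (0.547%) lay below CM mouse 3 (0.552%). The 11 variants together were at 605, 688, 600.0, 729 and 732 CPM in CM and at 803, 703, 673, 714 and 634 CPM in CM/miR-126Δ/Δ, with a mean log2 difference of 0.07 with SDs of 0.14 and 0.13. Replication-dependent counts exceeded variant counts 8.75 ± 0.682-fold in CM and 8.65 ± 0.559-fold in CM/miR-126Δ/Δ (SD, n = 5).

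**Figure D2:**
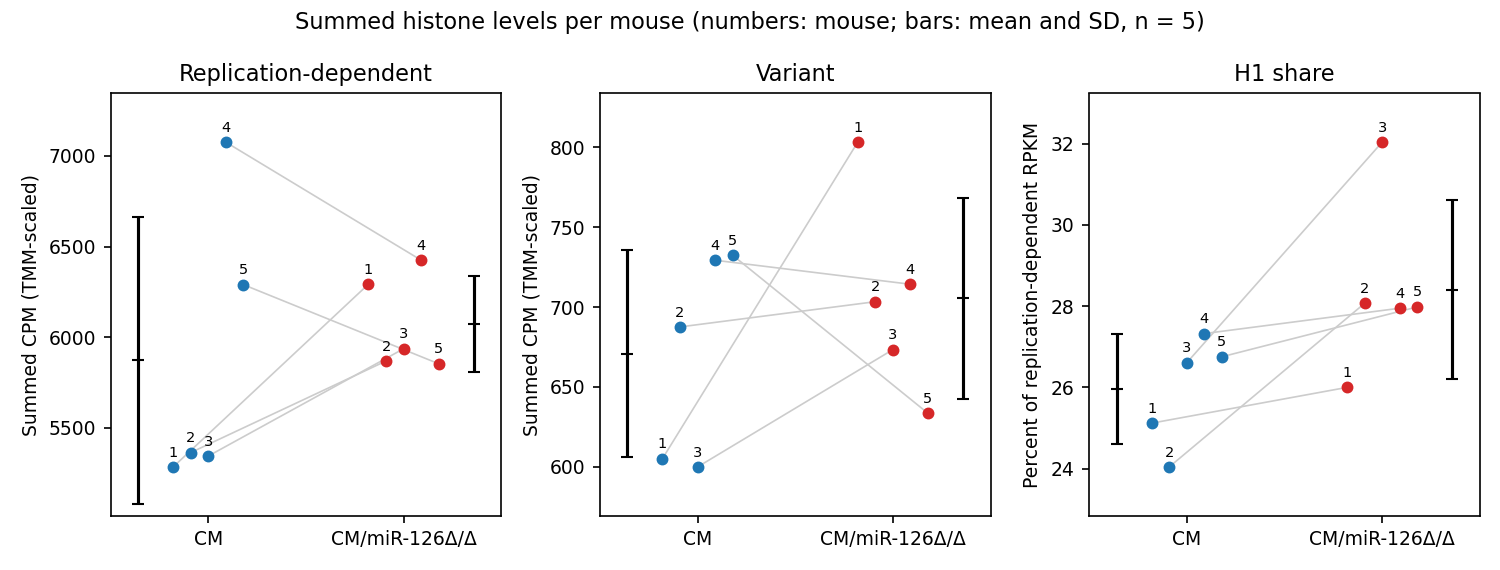
Summed TMM-scaled CPM of replication-dependent genes (left) and variant genes (middle), and the percent of replication-dependent RPKM that falls on H1 genes (right), for each mouse; numbers give the mouse, grey lines join mice of the same number, and bars give mean and SD (n = 5). The axes do not start at 0. The sums overlap between genotypes, with CM mouse 4 highest at 7076 CPM, and the H1 share is higher in the CM/miR-126Δ/Δ mouse of all 5 same-numbered pairs.

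The families divided the counted replication-dependent message unequally, within the limit that near-identical copies set (given below). By RPKM, H4 genes held 29.5 ± 1.32% in CM and 28.8 ± 1.22% in CM/miR-126Δ/Δ, H2B genes 23.2 ± 1.49% and 22.1 ± 1.62%, H3 genes 11.2 ± 0.387% and 10.8 ± 0.962%, and H2A genes 10.2 ± 0.664% and 9.92 ± 0.419%. H1 genes held 25.1, 24.0, 26.6, 27.3 and 26.8% in CM mice 1 to 5 and 25.997, 28.1, 32.0, 27.9 and 28.0% in CM/miR-126Δ/Δ mice 1 to 5. CM mouse 2 had the lowest H1 share and CM/miR-126Δ/Δ mouse 3 the highest, and the genotypes overlapped. The difference of means was 2.44 percentage points, and 1.53 without CM/miR-126Δ/Δ mouse 3. Markers of other cells also differed between these 2 mice. Summed granulocyte markers (10 of 10 measured) were at 1942 CPM in CM mouse 2 and 4453 CPM in CM/miR-126Δ/Δ mouse 3, within ranges of 1942 to 3679 CPM in CM and 1607 to 4453 CPM in CM/miR-126Δ/Δ. That sum is mostly Mpo, a gene of early myeloid progenitors (1506 and 3622 CPM in the 2 mice). The genes of later granulocytes did not follow it: in CM/miR-126Δ/Δ mouse 3, S100a8, S100a9 and Ltf were at 0.479, 0.566 and 0.087 CPM, the lowest of the 10 mice. Camp, Ngp and Lcn2 were at 0.044, 0.305 and 2.44 CPM there and were not the lowest. Camp was lower in CM mouse 2, Ngp in CM mouse 1, and Lcn2 in CM mouse 1 and CM/miR-126Δ/Δ mouse 1. Summed erythroid markers were at 9.88 CPM in CM mouse 2, the lowest of the 10, and at 75.6 CPM in CM/miR-126Δ/Δ mouse 3. The libraries of these 2 mice differed as well. CM/miR-126Δ/Δ mouse 3 had the lowest RNA concentration of the 10 (16.1 ng/µl, against 27.9 in CM mouse 2). It also had the lowest TMM factor (0.922) and the highest Rn45s share (22.6%). RNA concentrations ran from 20.6 to 40.9 ng/µl in CM and from 16.1 to 29.5 in CM/miR-126Δ/Δ. The part of these cells, or of these library differences, in the H1 share was not tested.

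The replication-dependent genes tended to be high or low together from mouse to mouse. Of the 51 with a mean count above 50, CM mouse 4 was the highest of the 10 mice for 29 genes and above the gene's own mean for 50, with a median deviation of 0.24 on the log2 scale. CM mouse 3 was above the mean for 3 genes and CM mouse 1 for 7. A principal component analysis of these deviations put 45.2% of the variance on a first component, on which 50 of the 51 genes had the same sign. The exception was H4c2. The second component held 23.8% and had H1f4, H4c2, H1f2, H2ac21, H1f3, H4c14 and H1f5 at one end and H2bc11, H2ac8 and H2bc12 at the other. CM mouse 2 and CM/miR-126Δ/Δ mouse 3 were its extremes. H1f1 was not among the genes at that end.

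**Figure D3:**
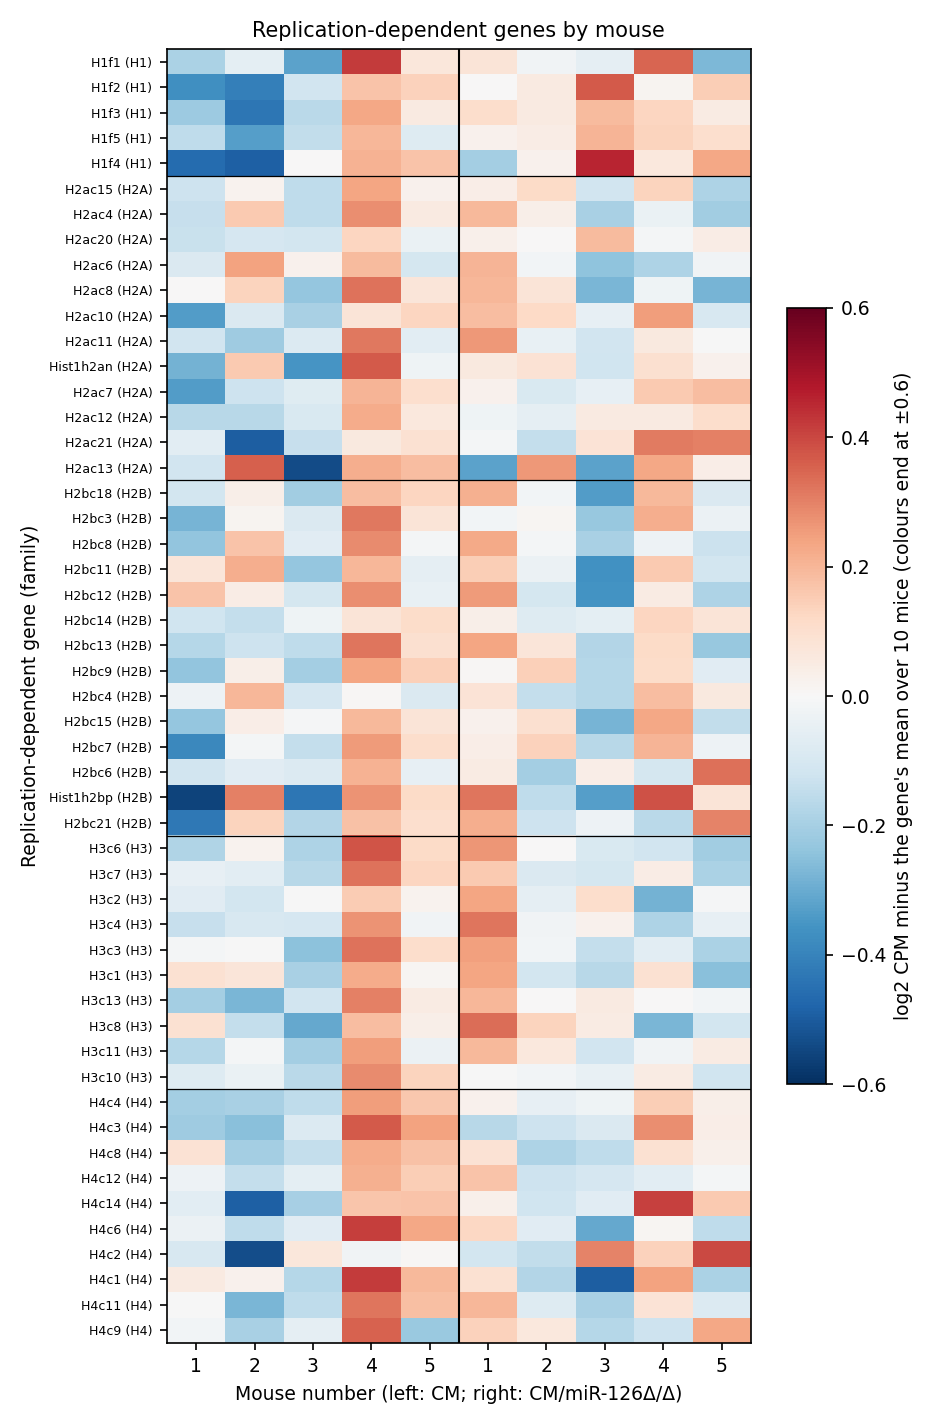
Deviation of each replication-dependent gene (rows, by family and then by level) from its own mean log2 CPM over 10 mice (columns, 5 CM at left and 5 CM/miR-126Δ/Δ at right); red is above and blue below the gene's mean, with colours ending at 0.6. The column of CM mouse 4 is red in 50 of 51 rows, H1f2 to H1f5 and H4c2 are well below their means in CM mouse 2 and above them in CM/miR-126Δ/Δ mouse 3, and H4c14 is low in CM mouse 2 (−0.49) and near most rows in CM/miR-126Δ/Δ mouse 3 (−0.07).

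RNAs that lack a poly(A) tail for other reasons were set beside these values. Rpph1, the RNA of RNase P, was at 6827, 5544, 5007, 10586 and 7038 CPM in CM mice 1 to 5 and at 5178, 4753, 4282, 12359 and 5266 CPM in CM/miR-126Δ/Δ mice 1 to 5. Rmrp and Terc were also highest in mice 4 of both genotypes. The same 2 mice were the highest of their genotype for replication-dependent histones, at 7076 and 6425 CPM, and the 2 highest of the 10. Their part in the histone levels was not tested.

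No histone gene was called between genotypes. The study's cutoffs (p at or below 0.01, at least 1.5-fold, a mean of at least 1 RPKM) called 54 of 18747 genes (0.288%) and 0 of the 67 histone genes fitted by edgeR. At an unadjusted p under 0.05, 1 histone gene passed, H1f5, where 6.61% of all genes did (3.29% higher and 3.32% lower in CM/miR-126Δ/Δ). DESeq2 also gave H1f5 alone, where 6.06% of all genes passed (3.25% higher and 2.81% lower), and called 0 histone genes and 0.341% of all genes. At an adjusted p under 0.05, 0 histone genes and 0.0107% of all genes passed by edgeR, and 0 and 0.251% by DESeq2. Genotypes did not overlap for 1.38% of the genes at 1 RPKM or more, and for 0 of the 60 histone genes. Among these 60, 34 had a higher and 26 a lower mean in CM/miR-126Δ/Δ. Of all 11682 genes at this level, 4963 were higher and 6719 lower. The median log2 fold change was 0.01 for the 60 and −0.02 for the 11682. The extremes among the 60 were −0.25 (Hist1h4m) and 0.23 (H4c2). The median SE of a histone gene was 0.103 on the log2 scale.

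**Figure D4:**
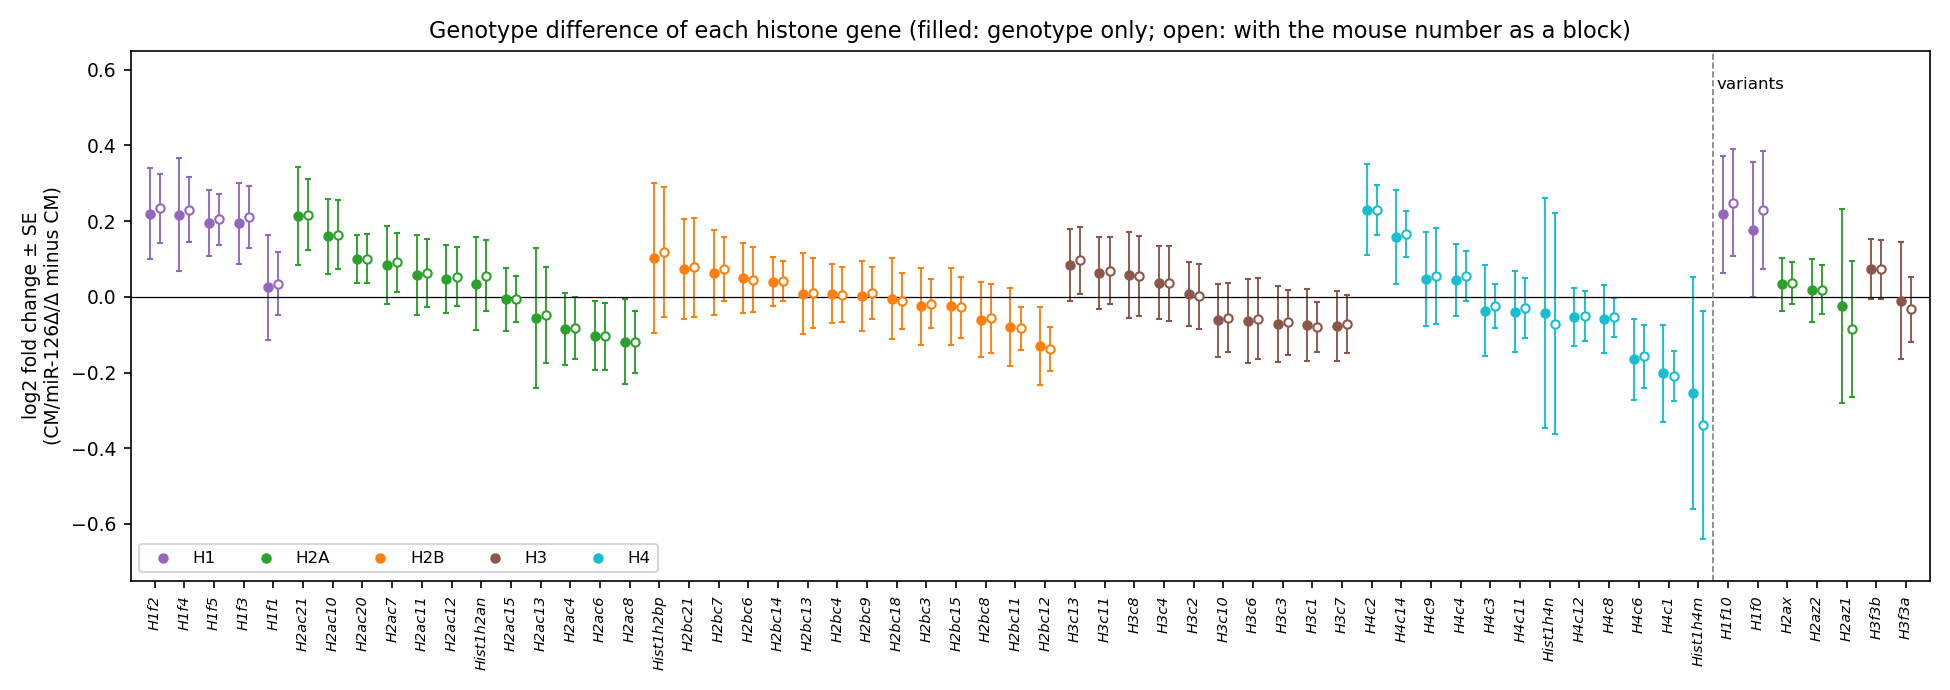
Log2 fold change with its standard error (CM/miR-126Δ/Δ minus CM) for the 60 histone genes at 1 RPKM or more, ordered by family, replication-dependent genes left of the dashed line and variants right of it. Filled points are the fit on genotype only and open points the fit with the mouse number as a block. All values lie between −0.34 and 0.25, and 4 of the 5 H1 genes sit near 0.2.

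H1f5 encodes one of the somatic linker histones (chromosome 13, 21779832 to 21780625, minus strand, a single exon). It was at 376, 332, 377, 480.2 and 396 RPKM in CM mice 1 to 5 and at 426, 432, 481, 458 and 449 RPKM in CM/miR-126Δ/Δ mice 1 to 5. All 5 CM/miR-126Δ/Δ mice were above 4 of the 5 CM mice, and CM mouse 4 lay within their range. The log2 fold change was 0.20 (SE 0.0869, edgeR p = 0.0411 before and 0.748 after adjustment over all genes, two-sided exact permutation p = 0.0476 for this gene alone). The difference did not pass the correction.

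The other linker genes of the cluster had log2 fold changes of like size. H1f2 was at 517, 502, 615, 751 and 735.4 RPKM in CM and at 668, 693, 861, 674 and 738 RPKM in CM/miR-126Δ/Δ (0.22, SE 0.12, adjusted p = 0.765 by edgeR). H1f3 was at 542, 467, 563.6, 741 and 655 RPKM in CM and at 679, 655, 721, 689 and 652 RPKM in CM/miR-126Δ/Δ (0.19, SE 0.106, adjusted p = 0.765 by edgeR). H1f4 was at 248, 243, 342, 395 and 385 RPKM in CM and at 297, 349, 470.3, 358 and 402 RPKM in CM/miR-126Δ/Δ (0.22, SE 0.149, adjusted p = 0.765 by edgeR). In all 3 genes CM mice 1 and 2 were the lowest of the 10, and CM mouse 5 lay among the CM/miR-126Δ/Δ mice. CM mouse 4 did so for H1f2 and H1f4 and was the highest of the 10 for H1f3. H1f1 differed less, with a log2 fold change of 0.03 (SE 0.138, adjusted p = 0.977 by edgeR). With a mouse left out its value ran from −0.0529 to 0.162. This range overlapped those of H1f2 to H1f5 (H1f3, 0.119 to 0.298), so its distance from them is uncertain.

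Same-numbered mice deviated together on average across all genes, though not most closely for numbers 2 and 5. The fit with the mouse number as a block therefore stands beside these values. Under the block 0 histone genes were called, where 0.613% of all genes were. The count at an unadjusted p under 0.05 went from 1 to 9 of 67, where 8.89% of all genes passed. Of the 9, 7 were higher in CM/miR-126Δ/Δ (background 4.27%) and 2 lower (background 4.62%). The 7 were H4c2 (unadjusted p = 0.00481), H1f5 (0.011), H4c14 (0.019), H1f4 (0.0215), H1f2 (0.025), H1f3 (0.0261) and H2ac21 (0.04). The 2 were H4c1 (0.00809) and H2bc12 (0.0369). The 7 higher genes are the same that stood at one end of the second component above. They varied together, with CM mouse 2 and CM/miR-126Δ/Δ mouse 3 as extremes, so they are not 7 separate results. H4c14 was at 263, 195, 239, 308 and 309 RPKM in CM and at 280.1, 253, 262, 364 and 306 RPKM in CM/miR-126Δ/Δ. H2ac21 stood at 22.01 ± 3.32 and 25.5 ± 3.49 RPKM and was higher in 5 of the 5 pairs. None passed the correction: the lowest adjusted p of a histone gene was 0.263 under the block, 0.748 without it, and 0.0839 to 0.906 over all alternatives. DESeq2 with the block gave 7 at the unadjusted p (6.53% of all genes), 6 higher (3.49%) and 1 lower (3.05%), all among these 9, and called 0 (0.496%). At an adjusted p under 0.05 the block fits passed 0.107% of all genes by edgeR and 0.709% by DESeq2. Leaving out the pair of mice 2 left 4 histone genes at this p and none of the H1 genes, and leaving out the pair of mice 3 left 4 with H1f5 as the only H1 gene. Leaving out the pairs 1, 4 or 5 gave 12, 10 and 10. Of all genes, 1257 of 18585, 1158 of 18480, 1944 of 18593, 1723 of 18508 and 1367 of 18590 passed without the pairs 1 to 5.

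H4c2 and H4c1 stayed on opposite sides in all 5 of these fits. They are neighbours with adjacent positions in the cluster (H4c2 at 23756937 to 23757386 on the plus strand and H4c1 at 23760795 to 23761249 on the minus strand) and encode the same H4 protein. H4c2 was at 123, 90.7, 138, 129 and 132 RPKM in CM and at 122, 118, 161, 144 and 172 RPKM in CM/miR-126Δ/Δ, higher in 4 of the 5 same-numbered pairs. H4c1 was at 117, 115, 100.2, 151 and 129 RPKM in CM and at 119.98, 99.995, 80.1, 133 and 98.7 RPKM in CM/miR-126Δ/Δ, lower in 4 of the 5. Under the block their log2 fold changes were 0.23 (SE 0.0661) and −0.21 (SE 0.0658), with adjusted p = 0.263 and 0.317 from edgeR. The genotypes overlapped for both genes. Only 27.9% of the 51-base windows in the H4c2 coding sequence and 25.2% in that of H4c1 occur once in the genome.

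The promoters of the linker genes are shown because 4 of them had fold changes of like size. RefSeq promoter windows (GRCm38.p6, 250 bases before to 50 after the start) were found for 47 replication-dependent and 9 variant genes and searched on both strands. CCAAT was in 41 of the 47 (87.2%, against 41.1% of all 27025 genes), absent from most H4 genes (3 of 9 had it), and TATAAA was in 29 of the 47 (61.7% against 15.7%). The octamer ATTTGCAT was in 13 of the 47, all of them H2A or H2B genes (27.7% against 1.97% of all genes). AAACACA, the H1 box, was in 5 of the 6 H1 genes of the cluster, in 4 of the other 41 replication-dependent genes and in 8.22% of all genes. The stretches from the H1 box to the base before the start are given with the H1 box, the CCAAT box (or its complement ATTGG) and the TATA box in capitals, and these motifs do not overlap.
H1f2, chr13:23738695-23738806, plus strand: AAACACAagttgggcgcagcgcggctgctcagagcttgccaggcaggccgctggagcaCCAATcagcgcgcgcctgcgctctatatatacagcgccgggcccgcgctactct
H1f3, chr13:23554910-23555031, plus strand: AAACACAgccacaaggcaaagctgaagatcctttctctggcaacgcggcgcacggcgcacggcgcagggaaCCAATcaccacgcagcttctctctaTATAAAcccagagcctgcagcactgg
H1f4, chr13:23622559-23622673, minus strand: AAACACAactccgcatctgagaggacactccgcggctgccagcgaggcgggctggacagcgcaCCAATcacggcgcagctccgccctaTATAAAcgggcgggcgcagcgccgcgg
H1f5, chr13:21780626-21780742, minus strand: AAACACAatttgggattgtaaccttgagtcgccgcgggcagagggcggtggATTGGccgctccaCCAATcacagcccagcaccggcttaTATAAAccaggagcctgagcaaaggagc
H1f6, chr13:23695697-23695810, plus strand: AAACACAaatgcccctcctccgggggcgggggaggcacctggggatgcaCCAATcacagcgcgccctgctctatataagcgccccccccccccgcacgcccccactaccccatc
The testis gene H1f6, which was near 0 in these cells, shared the H1 box and the CCAAT with H1f2 to H1f5, which reached 349 RPKM or more. H1f1 had CCAAT at 56 and TATAAA at 33 bases before its start and no exact AAACACA in the window.

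Near-identical copies limit what single values mean. Only 27.9% of the 51-base windows in a typical replication-dependent coding sequence (the median of 57 genes) occurred at most once in the genome, with a range from 0 to 100%. Windows over an exon junction, which the genome does not hold, count as found once here. They were 146 of 340 windows in H2az2, 47 of 313 in H2bc18 and 42 of 361 in H3f3b. H1 genes were the most distinct, with a median of 89.2%, while H2A, H2B, H3 and H4 genes had medians of 19.8, 20.8, 21.3 and 29.6%. The median level was 48.2 RPKM for the 11 genes under 10%, 123 RPKM for the 32 genes from 10 to 50%, and 313 RPKM for the 14 genes at 50% or more. The 4 genes with no window found once were Hist1h4m and Hist1h4n, at 3.36 and 2.26 RPKM, and H2ac11 and H2ac7, at 55.96 and 48.2 RPKM. How reads with several matches were counted is not given in the sources used here, so the order of levels among core genes is uncertain. The same holds for the family shares, the summed levels and the level of H1 genes beside core genes. H3f3a (14.1%) and H2az1 (26.1%) also share most of their coding windows with other places in the genome, and their low levels beside H3f3b (58.4%) and H2az2 (100%) carry the same limit.

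**Figure D5:**
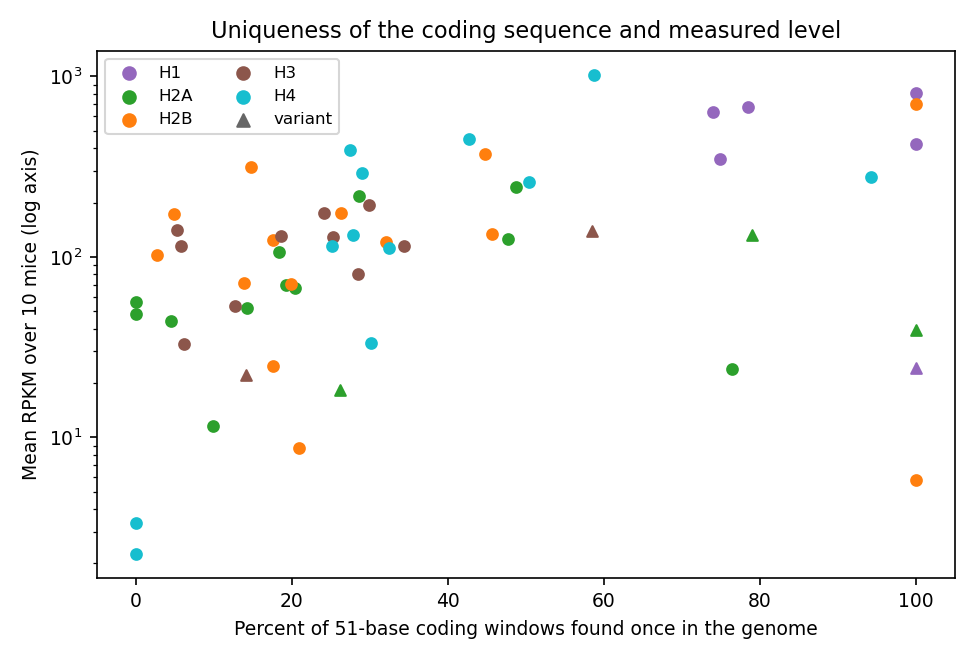
Mean RPKM over 10 mice (log axis) against the percent of 51-base coding windows that occur at most once in the mouse genome, 1 point per histone gene at 1 RPKM or more with a matched transcript, coloured by family, with triangles for variants. The H1 genes lie at the right, at 74.03% or more, most core genes lie under 50%, and the 4 genes at 0% range from 2.26 RPKM (Hist1h4n) to 55.96 RPKM (H2ac11).

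The machinery that makes and carries histones was measured from a list of 35 genes. At an unadjusted p under 0.05 no gene had a higher mean and 2 of 35 a lower mean in CM/miR-126Δ/Δ, where 3.32% of all genes were lower. The 2 were the histone acetyltransferase gene Hat1 and Srrt, a partner of the cap-binding complex. Their log2 fold changes were −0.16 (SE 0.0677) and −0.19 (SE 0.0854), with adjusted p = 0.746 and 0.748 from edgeR. The list's median log2 fold change was −0.04 against −0.01 for all genes fitted. Slbp was at 71.7, 65.6, 59.8, 61.1 and 59.4 CPM in CM and at 57.6, 62.8, 54.1, 64.7 and 58.1 CPM in CM/miR-126Δ/Δ (log2 fold change −0.10, SE 0.0677, adjusted p = 0.765 by edgeR). CM mouse 1 was the highest for Slbp and the lowest for summed replication-dependent histones. Mean CPM of CM and then CM/miR-126Δ/Δ mice was 82.9 ± 5.48 and 88.3 ± 11.0 for Npat, 111 ± 9.80 and 111 ± 5.06 for Casp8ap2, which like Npat sits at histone genes, and 129 ± 6.90 and 131 ± 6.95 for Eri1, an exonuclease that trims histone mRNA ends. Lsm10 (12.95 ± 1.48 and 12.7 ± 1.21 CPM), Lsm11 (26.5 ± 3.15 and 26.4 ± 1.62 CPM) and Zfp473 (3.56 ± 0.787 and 3.47 ± 0.564 CPM), all tied to U7-dependent processing, differed in mean by less than the SD of either genotype. Under the block 1 gene of the list was higher at this p (the centromere histone chaperone gene Hjurp, 0.25, unadjusted p = 0.0114), where 4.27% of all genes were, and 4 were lower (Chaf1b, Hat1, Nap1l1 and Srrt), where 4.62% of all genes were.

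S phase genes gave the last comparison, since replication-dependent histone message is made in that phase. Of 24 genes, 1 was lower at an unadjusted p under 0.05 (Gins1, a subunit of the replicative helicase complex, log2 fold change −0.20, SE 0.0891, adjusted p = 0.748 from edgeR) and none higher, where 3.32% of all genes were lower and 3.29% higher. The list's median log2 fold change was −0.07 against −0.01 for all genes fitted. Under the block 2 were lower, Gins1 and Pcna, where 4.62% of all genes were. Summed over the list they were at 5371, 5331, 5074, 5231 and 4952 CPM in CM mice 1 to 5 and, in CM/miR-126Δ/Δ mice 1 to 5, at 5502, 5443, 5097, 4790.5 and 4948 CPM. The mice did not take the same order as for histones. CM mouse 1 was lowest for replication-dependent histones and was exceeded by only 2 mice for the S phase sum. CM/miR-126Δ/Δ mouse 4, the lowest for that sum, was exceeded by 1 mouse for histones. The sum leans on Mki67 and Top2a, its highest genes, which are not limited to S phase. They were at 844 and 808 CPM in CM mouse 1, at 1108 and 949 CPM in CM/miR-126Δ/Δ mouse 1 and at 1234 and 891 CPM in CM/miR-126Δ/Δ mouse 2. Without these genes no mouse exceeds CM mouse 1, and CM/miR-126Δ/Δ mouse 4 is not the lowest.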

How the data were processed

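RNA-seq libraries of sorted LSK cells were made by the authors with a stranded kit after ribosomal RNA depletion and read as single 51-base ends. Per the labels, reads were aligned with TopHat2 to mm10 (GRCm38) and counted per gene with HTSeq 0.6.1p1. The authors' count table gives raw counts for each RefSeq gene, with its position and total exon length. The strand setting and the treatment of reads with several matches are not given in the sources used here. A second deposited table, which holds each count divided by 1 constant per library, was not used.

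All 18747 genes with at least 1 count were fitted with edgeR 4.0.16 (TMM, quasi-likelihood F-test in the edgeR 3 form, genotype only, R 4.3.3). A call needed p at or below 0.01, 1.5-fold and a mean of 1 RPKM, as in the study's methods. CPM and RPKM were computed here from counts, TMM-scaled totals and exon length. P-values measure the spread between mice. Sums and shares got no test. Alternatives were DESeq2 1.42.0, RLE factors, other filters, edgeR 4's own form, a replicate block and each mouse left out. The fits were tested on simulated data.

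The mouse numbers in the labels were used for pairing because same-numbered mice deviated together on average. The labels do not say what mice of the same number share. Correlations of their deviations from genotype means over 11682 genes were 0.304, 0.217, 0.415, 0.442 and 0.176 (across genes, which are not replicates). For CM mice 2 and 5, a CM/miR-126Δ/Δ mouse of another number correlated more. The mean for other pairs was −0.079. Deviations from a mean cancel within a genotype, which ties this value to the same-numbered ones, so it is no separate support. No 2 libraries agreed within sampling noise.

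Class was set by position: members in 2 runs of neighbouring histone genes, and those with Hist names, were replication-dependent. A rule by symbol, written first, would have put H1f1 to H1f6 among the variants and was kept as an alternative. Named were the 2 highest genes of each replication-dependent family, every variant at 1 RPKM or more, members with p under 0.05 or no overlap, the germ line genes and 7 supply genes. The genes named for the block, H1f3 and the head-to-head pairs were chosen after their values were seen. The members and lists were chosen with earlier results of these data known. Stem-loops and coding windows came from GENCODE M1 transcripts and the NCBIM37 genome, matched by older symbol for 65 of 68 members, without coordinates. Promoters came from RefSeq.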

Additional observations from a re-analysis of the deposited data

Results flagged for a closer look

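In 84 groups of 5 mice (summed levels, ratio, family shares and named genes, each genotype apart), 1 mouse stood far from the other 4 of its genotype. Chance gives about 4.2 such mice at the 5% level. It was the H2B share of replication-dependent RPKM in CM mouse 2, at 25.8% where the other 4 CM mice had 22.2% to 22.9%. The same mouse had the lowest H1 share of the 10.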

How the results depend on the processing

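No histone gene was called under any alternative, and the sums and shares kept their size within 1 between-mouse SD in every setting tried, except as given here. Of 145 alternative values for counts, sums, ratio and shares, 128 stayed and 17 moved. The count at an unadjusted p under 0.05 (1 in the fit on genotype) was 9 with the replicate block and 7 with DESeq2 and the block. It was 0 to 5 with a mouse left out: 0 without CM mouse 1 or 2 or CM/miR-126Δ/Δ mouse 3 or 5, 5 without CM mouse 4 and 4 without CM mouse 5. Under the block it was 12, 4, 4, 10 and 10 without the pairs 1 to 5. The cause was not tested. Fits with a pair left out, DESeq2 with the block, and classes by symbol were chosen after seeing the data. With classes by symbol the ratio's log2 difference went from −0.02 to −0.16, since H1f1 to H1f6 then count as variants.

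Of 577 values for 34 named genes, 63 in 14 genes had the other sign, all for small fold changes. H2ac15 was at 0.00248 with RLE factors, 0.00248 with DESeq2, 0.0115 with filterByExpr, 0.0137 with a mean of 1 RPKM and 0.00392 with DESeq2 and the block. H2bc18 was at 0.00443, 0.00442, 0.0138 and 0.0159 in the first 4 of these. H3f3a was at 0.00838 with filterByExpr and 0.0105 with 1 RPKM. Lsm11 was at 0.00307, 0.00249, 0.0115, 0.0135 and 0.00722 in the order of H2ac15. With a mouse left out, log2 fold changes ran from −0.0529 to 0.162 for H1f1, −0.0356 to 0.0686 for H2ac15, −0.0487 to 0.0693 for H2bc18, −0.0789 to 0.0711 for H2bc3, −0.133 to 0.0456 for H3c6, −0.116 to 0.0146 for H3c7, −0.102 to 0.0722 for H4c3, −0.136 to 0.108 for H3f3a, −0.0093 to 0.102 for H2az2, −0.191 to 0.140 for H2az1, −0.0217 to 0.0598 for Casp8ap2, −0.0735 to 0.0368 for Lsm10, −0.0295 to 0.0807 for Lsm11 and −0.129 to 0.081 for Zfp473. The block changed no other call.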
